A study of Mus musculus with 6 samples.

Results

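Kupffer cells are the resident macrophages of the liver, and 10 genes that mark them in mice (Clec4f, Cd5l, Vsig4, Marco, Cd68, Timd4, Csf1r, C1qa, C1qb and C1qc) were followed across 6 liver arrays. The genes were chosen by symbol, and all 10 had a probe set among the 16331 probe sets tested. Whole-liver RNA from 3 mouse samples labelled Ugcg-deficient (KO, arrays 427, 429 and 431) was compared with RNA from 3 samples labelled wildtype (WT, arrays 426, 428 and 430) on Affymetrix arrays. Ugcg encodes the enzyme that adds glucose to ceramide, the first step of glucosylceramide-based glycosphingolipid synthesis. Not given in the sources used here are the strain, sex and age of the mice, how Ugcg was deleted and which liver cells lost it. The labels also leave unsaid whether 6 animals were used, so the p-values reflect spread among samples that may be technical.

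Kupffer cells line the liver sinusoids, where they bind and engulf bacteria, dying cells and old red blood cells carried by the portal blood. They depend on signals through the receptor encoded by Csf1r, and in the healthy mouse liver they carry the lectin Clec4f and the phosphatidylserine receptor Timd4, which newly arrived monocytes lack. Macrophages are also the main source of C1q, the recognition molecule that starts the classical complement pathway. In RNA from a whole organ, fewer cells of a type and less RNA per cell cannot be told apart.

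All values are log2 expression as deposited, and all differences are KO minus WT on the log2 scale. The 6 arrays correlated with each other at 0.988 to 0.994 across probe sets, with medians of 6.79 to 6.81, so arrays were compared as deposited. Ugcg itself averaged 6.83 on the KO arrays and 6.84 on the WT arrays, with 7.12 on KO 427, 6.70 on KO 429 and 6.68 on KO 431 against 6.81 to 6.87 on the WT arrays. The position of its probes relative to the deleted part is unknown here, and Ugcg therefore gives no check of the labels. The mean of 10 measured hepatocyte genes lay within 0.05 of the WT mean on every array. That compares the arrays with one another and is no check of the tissue label. Alb read between 14.60 and 14.69.

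None of the 10 marker genes passed the test of KO against WT arrays. The KO arrays differed from one another: most of the 10 genes were highest on KO 429 and lowest on KO 431, with the WT arrays close together between them. By the limma test, adjusted by Benjamini-Hochberg across the whole array, 0 of 10 genes passed an adjusted p under 0.05, where 0.0245% of all probe sets did (0.0122% lower on the KO arrays), and 0 of 10 had an unadjusted p under 0.05, where 4.99% did. The difference was below 0 for 9 of 10 genes, against 47.5% of all probe sets, with a median of -0.11 against a median of 0.0059 for all. In 0 of 10 genes were the groups free of overlap, against 9.57% of probe sets (4.47% lower on the KO arrays).

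The receptors with which Kupffer cells recognise their targets come first. Clec4f, a C-type lectin of mouse Kupffer cells that binds galactose-bearing glycans, read 9.42 on KO 427, 9.51 on KO 429 and 8.76 on KO 431, against 9.48, 9.23 and 9.32 on WT 426, WT 428 and WT 430. One KO array was therefore below, and another above, every WT array, and the groups overlapped. The means were 9.23 ± 0.41 on the KO arrays and 9.34 ± 0.13 on the WT arrays (SD, n = 3 each), a difference of -0.11 (95% interval -0.51 to 0.29).

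Vsig4, the complement receptor with which Kupffer cells capture C3-coated bacteria, read 9.53, 9.66 and 8.95 on KO 427, KO 429 and KO 431, against 9.62, 9.55 and 9.56 on WT 426, WT 428 and WT 430. The WT arrays lay within a narrow band (SD 0.0370), and KO 431 lay farthest from it, 0.63 below the WT mean. The difference was -0.20 (95% interval -0.57 to 0.17). Timd4, a receptor for phosphatidylserine on dying cells, read 6.70, 6.96 and 6.59 on KO 427, KO 429 and KO 431, against 6.997, 6.88 and 6.96 on WT 426, WT 428 and WT 430. Both KO 427 and KO 431 lay below all WT arrays, while KO 429 lay among them. Its difference of -0.20 (SE 0.0997, 95% interval -0.43 to 0.03) had the smallest unadjusted p of the 10 genes, 0.0762, and an adjusted p of 0.982 in the limma fit.

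Marco, a class A scavenger receptor for bacteria and particles, read 6.64, 7.60 and 6.64 on KO 427, KO 429 and KO 431, against 7.71, 6.99 and 6.56 on WT 426, WT 428 and WT 430. High and low arrays occurred in both groups, and the KO mean of 6.96 ± 0.55 and the WT mean of 7.09 ± 0.58 (SD, n = 3 each) had nearly the same spread. The SD of Marco over all 6 arrays, 0.513, was larger than that of 99.4% of probe sets. The difference was -0.13 (95% interval -0.85 to 0.59), and it was 0.18 without WT 426 and 0.03 without KO 427 or without KO 431.

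Cd68, a glycoprotein of macrophage lysosomes and endosomes, read 7.35, 7.41 and 6.93 on KO 427, KO 429 and KO 431, against 7.37, 7.29 and 7.38 on WT 426, WT 428 and WT 430. Apart from KO 431 the arrays of both groups were close together. The difference was -0.12 (95% interval -0.39 to 0.16). Csf1r, the receptor for the growth factors CSF1 and IL-34, read 8.93, 9.18 and 8.83 on KO 427, KO 429 and KO 431, against 9.05, 8.998 and 8.98 on WT 426, WT 428 and WT 430. It spread least of the 10 genes over the 6 arrays (SD 0.117), with KO 429 above and the other KO arrays below the WT arrays. The difference was -0.03 (95% interval -0.25 to 0.18).

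Among the secreted products, Cd5l, a scavenger-receptor-like protein that macrophages release into the blood, read 10.11, 10.72 and 9.94 on KO 427, KO 429 and KO 431, against 10.39, 10.32 and 10.29 on WT 426, WT 428 and WT 430. The KO arrays lay on both sides of the WT arrays, 0.39 above the WT mean on KO 429 and 0.39 below it on KO 431. The difference was -0.07 (95% interval -0.46 to 0.32). Over the 6 arrays Cd5l and Csf1r ordered the arrays alike (Pearson r 0.996, Spearman rho 1), although Csf1r differed less between arrays.

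The C1q genes encode the A, B and C chains that assemble into one C1q molecule, and in RefSeq's gene table for GRCm38.p6 they are neighbouring protein-coding genes on chromosome 4 in the order C1qb, C1qc, C1qa. C1qb read 8.93, 9.14 and 8.46 on KO 427, KO 429 and KO 431, against 8.98, 8.98 and 8.82 on WT 426, WT 428 and WT 430. C1qc read 8.76, 9.24 and 8.26 on KO 427, KO 429 and KO 431, against 8.78, 8.78 and 8.69 on WT 426, WT 428 and WT 430. For both genes KO 427 lay at the WT mean, with KO 429 above and KO 431 below all WT arrays. C1qa read 8.71, 9.30 and 8.76 on KO 427, KO 429 and KO 431, against 9.22, 9.12 and 9.04 on WT 426, WT 428 and WT 430. Here KO 427 was the lowest array, 0.41 below the WT mean, whereas C1qb and C1qc lay 0.0059 and 0.0046 above theirs on the same array. The differences were -0.20 for C1qa (95% interval -0.53 to 0.13), -0.08 for C1qb (-0.43 to 0.27) and 0.0033 for C1qc (-0.45 to 0.46). Across the 6 arrays C1qb and C1qc correlated at r = 0.948, against 0.693 for C1qa with C1qb and 0.721 for C1qa with C1qc. Without KO 429 and KO 431 these values were 0.999, 0.237 and 0.233 over 4 arrays. The points share their arrays and their normalization.

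**Figure D1:**
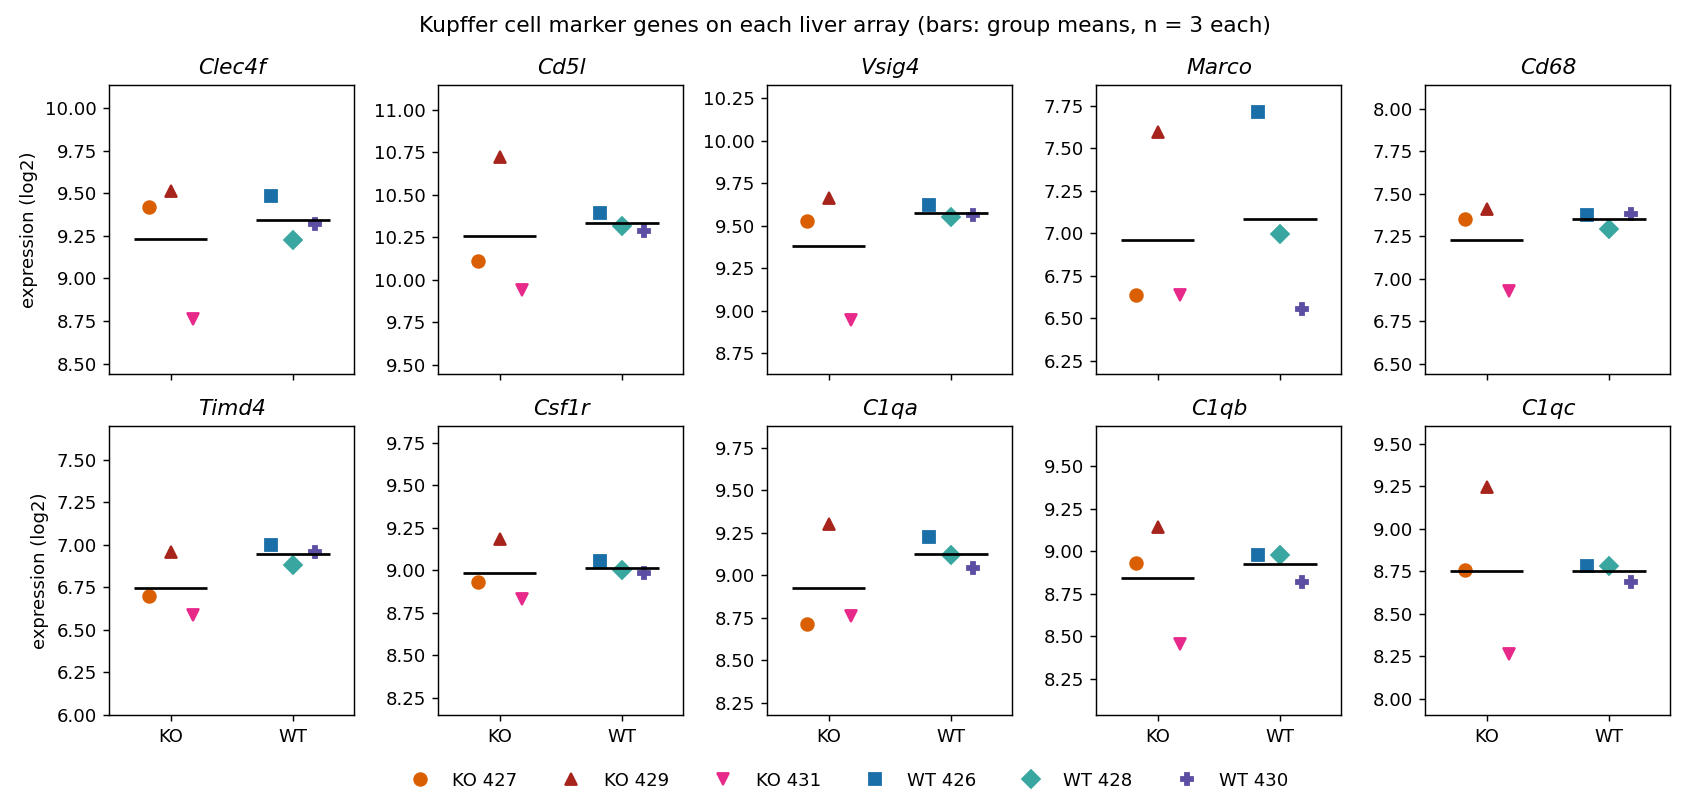
Log2 expression (vertical axis, the same height of range in each panel) of the 10 marker genes on 3 KO arrays (left) and 3 WT arrays (right), 1 point per array with the group mean as a bar. KO 431 is the lowest array for 8 of 10 genes and KO 429 the highest for 8 of 10, and for Marco the high arrays are WT 426 and KO 429.

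With 3 arrays per group, the 95% intervals of the limma fit give the precision of each difference. They are not adjusted for the number of probe sets, and do not say how large a change the adjusted test could miss. For Marco the 95% interval ran from 0.555-fold to 1.51-fold. For the other 9 genes the widest bounds were 0.676-fold, for Vsig4, and 1.38-fold, for C1qc. Timd4 was bounded between 0.744-fold and 1.02-fold, and Csf1r between 0.843-fold and 1.14-fold.

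Promoter sequences from RefSeq (GRCm38.p6), found by symbol, were read for 8 of 10 genes, all but C1qa and Csf1r. Those of Clec4f, Cd5l, Vsig4, Cd68, C1qb and C1qc are shown as the genes of these 8 that were highest on KO 429 and lowest on KO 431. That of Marco is shown as one that was neither. Csf1r was also highest on KO 429 and lowest on KO 431, but its promoter was left out of the 8. The motif counts therefore do not cover Csf1r or C1qa. Each sequence below is the 250 bases before the gene's start, 5′ to 3′ on the gene's strand. The capitals mark GAGGAA or, on the other strand, TTCCTC, the core of the PU box that the macrophage factor PU.1 is known to bind.
Clec4f promoter, chr6:83656117-83656366, minus strand: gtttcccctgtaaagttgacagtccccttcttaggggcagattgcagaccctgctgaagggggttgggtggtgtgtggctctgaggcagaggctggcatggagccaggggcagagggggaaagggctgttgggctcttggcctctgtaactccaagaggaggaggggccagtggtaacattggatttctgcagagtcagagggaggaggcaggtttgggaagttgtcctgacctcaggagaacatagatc
Cd5l promoter, chr3:87357631-87357880, plus strand: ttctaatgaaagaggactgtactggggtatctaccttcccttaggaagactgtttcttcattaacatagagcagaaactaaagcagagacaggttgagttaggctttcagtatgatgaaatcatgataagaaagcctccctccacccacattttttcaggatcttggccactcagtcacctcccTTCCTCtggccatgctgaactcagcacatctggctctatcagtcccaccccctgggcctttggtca
Vsig4 promoter, chrX:96293439-96293688, minus strand: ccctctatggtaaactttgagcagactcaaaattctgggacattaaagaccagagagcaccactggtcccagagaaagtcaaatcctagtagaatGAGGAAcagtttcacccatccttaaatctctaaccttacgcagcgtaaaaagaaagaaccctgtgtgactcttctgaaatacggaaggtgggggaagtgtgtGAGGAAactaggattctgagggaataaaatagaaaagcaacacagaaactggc
Marco promoter, chr1:120505025-120505274, minus strand: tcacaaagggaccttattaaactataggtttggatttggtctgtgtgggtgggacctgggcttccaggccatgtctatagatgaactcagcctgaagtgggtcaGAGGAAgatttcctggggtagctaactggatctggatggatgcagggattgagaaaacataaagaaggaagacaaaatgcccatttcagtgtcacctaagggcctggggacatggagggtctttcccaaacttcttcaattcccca
Cd68 promoter, chr11:69666171-69666420, minus strand: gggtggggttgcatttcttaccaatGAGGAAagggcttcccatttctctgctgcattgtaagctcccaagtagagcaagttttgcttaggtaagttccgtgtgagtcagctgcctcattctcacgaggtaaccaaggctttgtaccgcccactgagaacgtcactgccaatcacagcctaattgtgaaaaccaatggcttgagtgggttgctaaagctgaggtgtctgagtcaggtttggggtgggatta
C1qb promoter, chr4:136886201-136886450, minus strand: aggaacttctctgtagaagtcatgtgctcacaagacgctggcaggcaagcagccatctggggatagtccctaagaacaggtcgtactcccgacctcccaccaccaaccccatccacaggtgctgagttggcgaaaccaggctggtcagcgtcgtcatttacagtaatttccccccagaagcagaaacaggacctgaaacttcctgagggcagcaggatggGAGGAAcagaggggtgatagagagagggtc
C1qc promoter, chr4:136892915-136893164, minus strand: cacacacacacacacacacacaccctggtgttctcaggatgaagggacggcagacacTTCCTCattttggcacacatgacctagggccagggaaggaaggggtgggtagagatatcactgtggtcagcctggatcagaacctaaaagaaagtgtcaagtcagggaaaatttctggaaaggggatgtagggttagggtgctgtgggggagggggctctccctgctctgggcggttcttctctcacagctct

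At least 1 GAGGAA on either strand was found in 6 of 8 promoters, those of Vsig4, Marco, C1qb, C1qc, Cd5l and Cd68, and such a match was present in 23.3% of 32851 mouse promoter windows of the same length. Vsig4 had 2 matches, which began 155 and 53 bases before the start, and C1qb had 1, which began 30 bases before it. The letters TGCTGA, a half-site of Maf factors, were found on either strand in 4 of 8 promoters (Clec4f, Timd4, C1qb and Cd5l) and in 16.1% of all windows. TGANTCA, the AP-1 site, was found in 1 of 8, that of Cd68, and in 6.75% of all windows. No match of one motif overlapped a match of another in these 8 promoters. Marco holds 1 GAGGAA match and Clec4f none.

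The marker genes varied more among the KO arrays than among the WT arrays, Marco excepted, as values with no test. The median SD over the 3 KO arrays was 0.366 for the 10 genes and 0.0968 for all probe sets. Over the 3 WT arrays the median SD was 0.0570 for the 10 genes and 0.0903 for all. The SD was larger on the KO than on the WT arrays for 9 of 10 genes, all but Marco, and for 53.2% of all probe sets. In the lists described below, this held for 26 of 33 further macrophage genes and 14 of 18 monocyte genes. It also held for 8 of 10 hepatocyte genes and 9 of 9 adipose and muscle genes. Lower counts were 4 of 10 CSF1 receptor genes, 4 of 11 complement genes, 4 of 12 stellate cell genes and 0 of 10 pancreas genes. The remaining lists lay between these. The SD of Vsig4 was 0.381 on the KO arrays and 0.0370 on the WT arrays, and that of C1qc was 0.490 on the KO arrays and 0.0536 on the WT arrays.

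**Figure D2:**
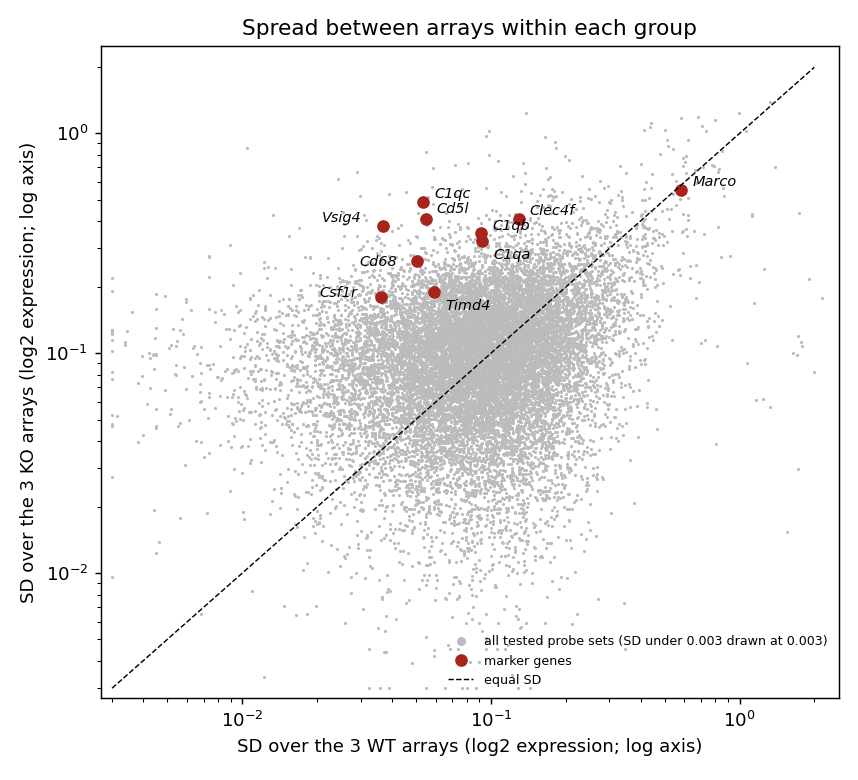
Standard deviation of log2 expression over the 3 KO arrays (vertical, log axis) against that over the 3 WT arrays (horizontal, log axis), with all tested probe sets in grey (an SD under 0.003 is drawn at 0.003) and the 10 marker genes in red. Of the marker genes 9 lie above the dashed line of equal SD, and Marco, at 0.553 and 0.584, lies just below it.

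The KO arrays with the extreme values were the same for most of the genes. KO 431 was the lowest of the 6 arrays for 8 of 10 genes, where it was lowest for 15.9% of all probe sets, and the exceptions were C1qa, lowest on KO 427, and Marco, lowest on WT 430. KO 429 was the highest array for 8 of 10 genes, where it was highest for 19.1% of probe sets, and the exceptions were Timd4 and Marco, highest on WT 426. Both held for 7 of 10 genes and for 3.67% of probe sets. All 10 genes lay above their WT mean on KO 429 and below it on KO 431.

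In size, KO 429 exceeded KO 431 by a median of 0.70 over the 10 genes, against 0.01 over all probe sets. The ratio between the 2 arrays was 1.97-fold for C1qc, 1.94-fold for Marco, 1.72-fold for Cd5l and 1.68-fold for Clec4f, and it was smallest for Timd4 (1.29-fold) and Csf1r (1.27-fold). The mean of the 10 genes, each relative to its WT mean, was -0.14 on KO 427, 0.23 on KO 429 and -0.43 on KO 431, against 0.12 on WT 426, -0.03 on WT 428 and -0.08 on WT 430. KO 429 and KO 431 were singled out after their values were seen, and nothing in the labels sets them apart.

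The direction of the median difference rested on KO 431: it turned without that array and stayed below 0 with any other single array left out. Without KO 431 the difference was below 0 for 2 of 10 genes, Timd4 (-0.12) and C1qa (-0.12), against 46.7% of all probe sets, and the median was 0.04. At an unadjusted p under 0.05, 0 of 10 were lower without KO 431, against 3.05% of probe sets. Without KO 429 it was below 0 for 10 of 10 genes, against 49.1% of probe sets, and the median was -0.28. No gene passed the limma adjusted p under either omission, and 0% of all probe sets did. At an unadjusted p under 0.05, 3 genes were lower without KO 429, where 2.09% of probe sets were. They were C1qa (-0.39, adjusted p = 0.831 in limma), Timd4 (-0.31) and Cd5l (-0.31, adjusted p = 0.997 in limma for both).

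**Figure D3:**
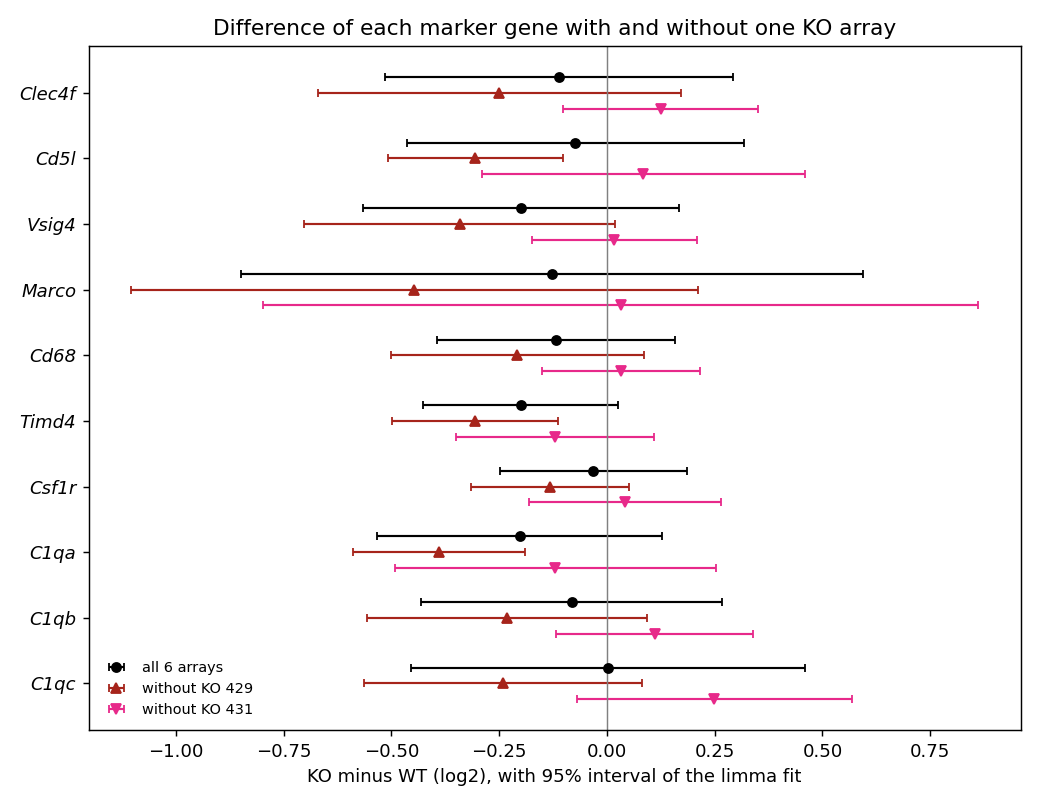
Difference between KO and WT arrays (log2, horizontal axis) of each marker gene with its 95% interval from the limma fit, for all 6 arrays (black circles) and without KO 429 (red triangles pointing up) or KO 431 (pink triangles pointing down). With all arrays every interval includes 0, and without KO 431 the estimates of 8 of 10 genes lie above 0.

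The genes moved together across arrays. Over the 45 pairs of marker genes the median Pearson r across the 6 arrays was 0.803 (Spearman rho 0.754), and 23 pairs exceeded 0.8, whereas the median r of a marker gene with all other probe sets was 0.0219. Without KO 429 and KO 431 the median over pairs was 0.341 across the remaining 4 arrays. Marco was least like the others, with a median r of 0.641 to them, and C1qb most like them at 0.878. This order rested on KO 429 and KO 431: without them the median r was 0.701 for Marco and 0.237 for C1qb, with Cd68 lowest at 0.0010 and Csf1r highest at 0.858. The tightest pairs over 6 arrays after Cd5l and Csf1r were Vsig4 with Cd68 (0.985) and Clec4f with Cd68 (0.968). Without KO 429 and KO 431 these pairs were at 0.352 and 0.684, and Cd5l with Csf1r was at 0.974.

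Genes with a profile most like the mean of the 10 were sought among 1235 named genes with an SD of at least 0.2 and a mean above the 40th percentile. Of the 10 closest, 4 are macrophage or myeloid genes of the lists used here: the folate receptor Folr2 (r = 0.958 over 6 arrays), lysozyme Lyz2 (0.952), the complement regulator properdin Cfp (0.940) and the adaptor Tyrobp (0.912). Ly86, which encodes the MD-1 partner of an innate immune receptor, followed Lyz2 at 0.943. The others were the fatty-acid-binding protein gene Fabp7 (0.923), the corepressor gene Tle1 (0.913), the water channel gene Aqp1 (0.911), Osgin1 (0.897) and the calcium channel gene Trpv6 (0.896). Osgin1, an oxidative-stress-induced gene, had the largest range of these 10, 0.97 below its WT mean on KO 431 and 0.22 above it on KO 429. None of these 10 genes passed the comparison of KO with WT arrays (limma adjusted p of 0.986 or more). Without KO 429 and KO 431 their r ran from 0.168 for Fabp7 to 0.908 for Cfp across 4 arrays.

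**Figure D4:**
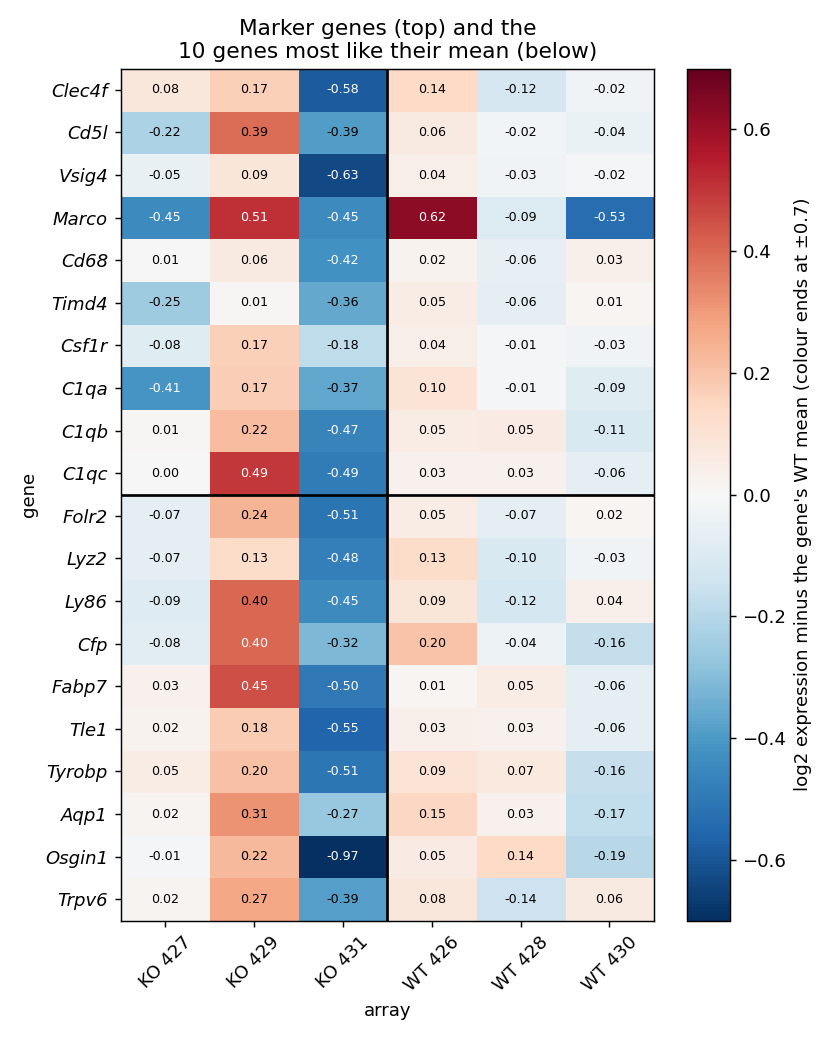
Log2 expression minus the gene's WT mean on 3 KO arrays (left) and 3 WT arrays (right) for the 10 marker genes (above the line) and the 10 genes most like their mean (below it), with the value in each cell and the colour ending at 0.7 to either side. The KO 431 column is below 0 in all 20 rows, and the KO 429 column above 0 in all 20. The lower 10 genes were chosen for likeness over these same arrays, so their signs add nothing to those of the marker genes.

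The mean of further macrophage genes was also lowest on KO 431 and highest on KO 429. Of 33 further genes of Kupffer cells and tissue macrophages, 18 were lower and 15 higher on the KO arrays, with a median of -0.01, and 0 of 33 passed the limma adjusted p or had an unadjusted p under 0.05. KO 431 was the lowest array for 17 of 33 and KO 429 the highest for 14 of 33. The mean of the list was -0.0025 on KO 427, 0.11 on KO 429 and -0.19 on KO 431, against 0.02, 0.01 and -0.04 on WT 426, WT 428 and WT 430. Without KO 431, 8 of 33 were lower, and without KO 429, 25 of 33 were. The 4 genes of the list with the smallest p did not pass (adjusted p = 0.982 in limma for each): Nr1h3, the oxysterol receptor LXR-alpha (0.22), the iron exporter Slc40a1 (-0.14), the Fc receptor chain Fcer1g (-0.17) and Aif1 (-0.15).

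Genes of monocytes and recruited macrophages had 6 of 18 lower on the KO arrays, with a median of 0.02 and 0 past the limma adjusted p. Their list mean was -0.0012, 0.09 and -0.02 on KO 427, KO 429 and KO 431, against 0.0017, 0.01 and -0.01 on WT 426, WT 428 and WT 430. KO 431 was the lowest array for 6 of 18 of these genes and KO 429 the highest for 8 of 18, against 15.9% and 19.1% of all probe sets. The endotoxin co-receptor Cd14 differed by 0.25, with 6.66, 7.04 and 6.84 on the KO arrays against 6.58, 6.71 and 6.50 on the WT arrays. The tetraspanin Cd9 differed by 0.18, the lipid receptor Trem2 by 0.14 and the integrin Itgax by -0.13. Of the list, 8 of 18 genes, Trem2 and Itgax among them, were dim, with a mean under the 40th percentile of probe sets. None of the 4 named genes passed (adjusted p = 0.982 in limma for each).

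The ligands and partners of the marker genes were compared next. Of 10 genes of CSF1 receptor ligands and signalling, 6 were lower and 0 passed (median -0.02). Il34, a ligand of the receptor made from Csf1r, differed by -0.14, the GM-CSF receptor chains Csf2ra and Csf2rb by -0.19 and 0.12, and the kinase subunit Pik3cg by -0.13. These named genes were all dim, with a mean under the 40th percentile of probe sets, as were 5 of 10 genes of the list. Of 11 genes listed under classical complement and C1q partners, 3 were lower and 0 passed (median 0.04). The list also holds Cfb, which encodes factor B of the alternative complement pathway. Cfb read 12.07, 12.06 and 12.01 on the KO arrays against 11.79, 11.88 and 11.84 on the WT arrays, a difference of 0.21 (limma adjusted p = 0.951). It was 1 of 11 in which the groups did not overlap, against 9.57% of all probe sets. Cd93 (0.13), the complement protease gene C2 (0.11) and calreticulin Calr (-0.11) came next.

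Of 17 scavenger and phosphatidylserine receptors and their bridging ligands, 8 were lower and 0 passed (median 0.03). Pros1, which encodes protein S, a bridge between phosphatidylserine and cell receptors, read 8.75, 8.77 and 8.68 on the KO arrays against 8.32, 8.49 and 8.35 on the WT arrays. The groups did not overlap in 4 of 17 genes, Pros1 among them, against 9.57% of all probe sets. The Pros1 difference of 0.34 (SE 0.0751) had an adjusted p of 0.670 in limma. Adgrb1, a phosphatidylserine receptor, differed by -0.22, the scavenger receptor Colec12 by -0.19 and Axl by -0.17.

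Markers of other cells of the liver were set beside these values. The mean of dendritic cell genes was also lowest on KO 431, which was the lowest array for 5 of 13. It lay 0.13 below the WT mean there, against 0.43 below it for the Kupffer cell genes. For the 10 genes of the sinusoidal endothelium, where Kupffer cells sit, the list mean was -0.0088, 0.02 and -0.06 on KO 427, KO 429 and KO 431, against 0.07, -0.06 and -0.00046 on WT 426, WT 428 and WT 430, with Lyve1 at a difference of -0.22 and Stab2 at -0.10. The mean of neutrophil genes was highest on KO 431, 0.26 above the WT mean over 9 genes, although KO 429 was the highest array for 4 of 9. S100a8 read 7.76 on KO 431 against 6.35 to 6.76 on the other 5 arrays. The mean of cholangiocyte genes was highest on KO 429, 0.35 above the WT mean over 9 genes, and KO 429 was the highest array for 4 of 9. The bile duct keratin Krt19, picked after its value was seen, read 7.60 there against 6.33 to 6.46 elsewhere. The mean of stellate cell genes was also highest on KO 429 (0.21 over 12 genes, 4 of them highest there). The part of these cells in the values of the Kupffer cell genes was not tested.

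The list mean of adipose tissue and muscle genes was highest on KO 427, and that of exocrine pancreas genes on WT 430. The part of these tissues in the Kupffer cell values was not tested. The mean of adipose tissue and muscle genes (9 genes) lay 0.48 above the WT mean on KO 427 and 0.17 above it on KO 431. It lay at -0.02 to 0.03 on the other arrays. This mean pools genes with different profiles. The muscle gene Mylpf, picked after its value was seen, read 7.14 on KO 427 against 6.30 to 6.46 elsewhere. The adipose gene Adipoq differed by 0.43 with all arrays, 0.13 without KO 431 and 0.63 without KO 427, so its difference came mostly from KO 431. Exocrine pancreas genes lay 1.82 above the WT mean on WT 430 (10 genes, -1.03 to -0.83 on the others). Leaving out KO 427 and WT 430 gave a difference below 0 for 10 of 10 Kupffer cell genes. The share of all probe sets below 0 was not counted for this setting. The median was -0.17, against 0.0029 for all probe sets. In limma 0 of 10 passed, against 8 of 16331 probe sets. Over all marker lists of other cells, 0 genes passed. The remaining genes with the smallest p of their lists were Col1a2 (0.24) and Timp1 (0.14) for stellate cells, Gzma (-0.11) and Gzmb (-0.13) for lymphocytes and NK cells, Csf3r (-0.23) beside S100a8 (0.57) for neutrophils, and H2-Eb1 (-0.32) and Bst2 (0.42) for dendritic cells. For hepatocytes they were Tat (0.43) and Cyp3a11 (-0.09), for cholangiocytes Cldn7 (0.21) and Epcam (0.21), for pancreas Cpb1 (-1.27) and Ctrl (-1.15), for adipose tissue Retn (0.23) and Adipoq (0.43), and for red blood cells Alas2 (-0.18) and Klf1 (-0.17). Of these, Timp1, Gzma, Gzmb, Cldn7, Epcam and Adipoq were dim, with a mean under the 40th percentile of probe sets.

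**Figure D5:**
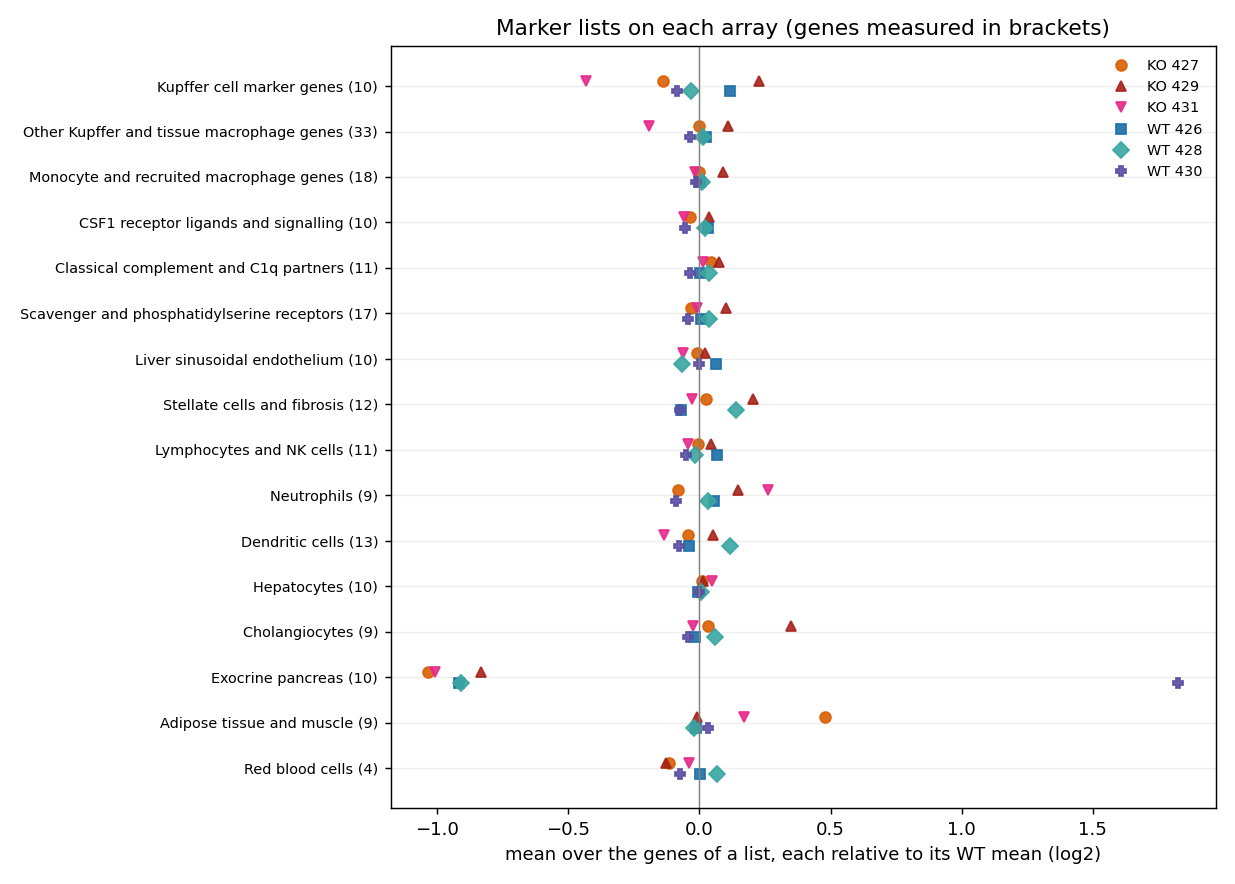
Mean over the genes of each list, each gene relative to its WT mean (log2, horizontal axis), on 3 KO arrays (upper points of each row) and 3 WT arrays (lower points), with the number of genes measured in brackets. The Kupffer cell marker genes run from -0.43 on KO 431 to 0.23 on KO 429, and the widest row is that of the exocrine pancreas, which sets WT 430 apart.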

How the data were processed

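Biotinylated cRNA was made from liver RNA by an Affymetrix protocol, per the labels' protocols. The authors deposited log2 expression values, a scale read from their range (5.38 to 14.69); how background, normalization and probe summary were handled is not given in the sources used here. Of 16395 probe sets, 64 AFFX controls were left out. The other 16331 are named by 1 Entrez gene number each, 15644 with a symbol in the platform annotation, of which 15617 matched the gene table of GRCm38.p6. Precision is limited by the number of arrays, and detection calls played no part.

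Groups came from the sample titles. KO was compared with WT by limma (version 3.58.1, R 4.3.3; lmFit and eBayes, two-sided; degrees of freedom 4 residual, 4.85 prior), adjusted by Benjamini-Hochberg over the 16331 probe sets, with a threshold of 0.05; the fit was tested on simulated data. All 10 genes passed the filter on dim probe sets (a mean above 6.51, the 40th percentile). The genes and the 15 other lists (212 entries, 186 with a probe set) were chosen with earlier results of these data known, so lists are described by counts and medians. All 10 marker genes and Ugcg were named. So were the 4 genes (macrophage lists) or 2 genes (others) of smallest p, and the 10 most like the mean of the marker genes. Krt19, Mylpf and Alb were chosen after their values were seen. Alternatives were quantile normalization, median centring, the dim filter, array quality weights, robust variance with an intensity trend, other thresholds, each array left out, and WT 430 with KO 427 left out. Figures were drawn with matplotlib 3.10.9.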

Additional observations from a re-analysis of the deposited data

How the results depend on the processing

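No marker gene passed the limma threshold under any alternative, so the limits concern direction and size. No paired analysis was possible because the KO and WT arrays share no replicate number. With single arrays left out, between 2 and 10 of the 10 marker genes were lower on the KO arrays, and their median difference ran from -0.278 to 0.0376, the last without KO 431. Over all probe sets 4 passed with all arrays, 0 to 4 with single arrays left out, 8 with array quality weights, 8 without WT 430 and KO 427, and 8 at an adjusted p under 0.1.

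The sign of Timd4 (-0.305 to -0.120) and C1qa (-0.389 to -0.0964) held with each array left out. The sign of the other 8 marker genes turned at least once: Clec4f ran from -0.250 to 0.124, Cd5l from -0.305 to 0.0846, Vsig4 from -0.341 to 0.0169 and Marco from -0.447 to 0.185. Cd68 ran from -0.208 to 0.0328, Csf1r from -0.131 to 0.0425, C1qb from -0.231 to 0.111 and C1qc from -0.242 to 0.249. Ugcg ran from -0.154 to 0.0675. Of the genes most like the markers, Folr2 ran from -0.289 to 0.0832, Lyz2 from -0.275 to 0.0277, Ly86 from -0.268 to 0.156, Cfp from -0.197 to 0.161 and Fabp7 from -0.235 to 0.240. Tle1 ran from -0.265 to 0.0998, Tyrobp from -0.229 to 0.127, Aqp1 from -0.124 to 0.165, Osgin1 from -0.491 to 0.108 and Trpv6 from -0.184 to 0.144. C1qc was -0.0126 after quantile normalization, -0.000600 with array quality weights and -0.0283 without WT 430 and KO 427. Under the same 3 settings Cfp was -0.0120, -0.0220 and -0.0398, and Aqp1 was -0.00610 with the weights and -0.0645 without both arrays. Fewer arrays enter the fits that leave arrays out; for the other settings the cause was not tested.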
